A study of Schizosaccharomyces pombe with 6 samples.

Results

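Protein turnover genes of the fission yeast *Schizosaccharomyces pombe* were followed through heat stress, through loss of the chaperones Mas5 or Ssa2 and through raised expression of Hsf1, the heat shock factor. The genes were chosen by name: every listed gene named *rpn*, *rpt*, *mts*, *ubi*, *ubc*, *ubp*, *pub* or *ufd* followed by a number, together with *cdc48* and *pad1*. This gave 56 of the 7008 genes listed. The rule uses names only, but it was chosen with earlier results of these data known. By role they are 20 genes of the 19S regulatory particle of the proteasome, 3 ubiquitin genes, 11 conjugating enzymes, 16 ubiquitin-specific proteases, 3 *pub* ligases and 3 genes of the Cdc48 path. The *pad1* gene appears under the name *rpn11*. The annotated products of 54 of the 56 name ubiquitin or the proteasome. The exceptions are *ubc12*, which conjugates the ubiquitin-like protein NEDD8, and *ubp13*, named *pan2* in the RefSeq annotation, a subunit of a poly(A)-specific ribonuclease.

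Ubiquitin is a small protein that is attached to other proteins by an activating enzyme (E1), a conjugating enzyme (E2) and a ligase (E3), and chains of it mark a protein for degradation. The proteasome consists of a 20S core, which cuts proteins, and a 19S regulatory particle, which binds ubiquitin chains, removes them and unfolds the protein with a ring of ATPases. The ATPase Cdc48, with Ufd1 and Npl4, extracts ubiquitylated proteins from membranes and complexes, and ubiquitin-specific proteases release ubiquitin for another round.

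Polyadenylated RNA was sequenced as 1 library for each of 6 conditions, all cultured at 24°C unless stated. Wild type, *mas5Δ* and *ssa2Δ* cells were grown in rich medium (YES per the labels, YE per the study's methods), and another wild type culture in that medium was moved to 36°C for 15 minutes. Wild type and *nmt1:hsf1* cells were grown in minimal medium lacking thiamine, *nmt1:hsf1* for 20 hours. The values came as 4 tables of 2 libraries, in FPKM (mapped fragments corrected for transcript length and library size). In *nmt1:hsf1* cells the thiamine-repressed *nmt1* promoter drives *hsf1*, so Hsf1 is produced without heat. In the deletion strains *ura4+* replaces the chaperone gene. Mas5 is an Hsp40 and Ssa2 an Hsp70 chaperone.

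The targeted genes changed as the labels say, *mas5* from 470 to 36.3 FPKM in *mas5Δ*, *ssa2* from 2960 to 55.0 FPKM in *ssa2Δ* and *hsf1* from 93.4 to 922 FPKM in *nmt1:hsf1* cells. No condition has a replicate library, the number of reads behind a value is unknown, and neither an error nor a p-value can be given for any gene. The heat stress, *mas5Δ* and *ssa2Δ* tables contain the same wild type library, scaled up 1.13-fold in the *mas5Δ* table and 1.02-fold in the *ssa2Δ* table relative to the heat stress table. Chance values of that library therefore enter 3 of the 4 comparisons, and levels are set side by side within each table. The cultures were sequenced in bulk, so a change in all cells and a larger change in some of them cannot be told apart. The 2 columns of the *nmt1:hsf1* table were read in the order used in the other tables, wild type first, and in that order *hsf1* is 9.87-fold higher in the cells labelled as overexpressing it. Of the 56 genes, 18 are alone in their locus in the tables, and 31 are overlapped by another listed gene. The kit does not mark strand, so reads of a gene and of an overlapping antisense gene cannot be told apart.

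Fission yeast encodes ubiquitin in several genes, and their sequences show how well short reads tell them apart. *ubi1* and *ubi3* encode ubiquitin fused to a ribosomal protein, and so do *uep1* (SPAC1805.12c, *ubi2* in the RefSeq annotation) and SPAC589.10c (*ubi5* there), which the names above do not find. *ubi4* encodes polyubiquitin, 5 ubiquitin units of 228 bases joined head to tail. The coding starts, 60 bases from the ATG on the coding strand of the ASM294v3 assembly, are given with the 21 bases at which the 5 genes differ in capitals and the 39 shared bases in lower case.
ubi1 (chrI:3969009-3969068, plus strand): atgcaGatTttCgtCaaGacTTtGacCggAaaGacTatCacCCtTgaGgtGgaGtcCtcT
uep1 (chrI:2794665-2794724, minus strand): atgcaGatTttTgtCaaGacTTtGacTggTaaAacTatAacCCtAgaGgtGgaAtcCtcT
ubi3 (chrI:3238303-3238362, minus strand): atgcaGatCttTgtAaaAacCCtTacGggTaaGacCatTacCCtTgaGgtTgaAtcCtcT
SPAC589.10c (chrI:3108821-3108880, minus strand): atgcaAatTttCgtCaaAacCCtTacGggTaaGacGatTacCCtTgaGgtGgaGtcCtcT
ubi4 (chrII:1045507-1045566, minus strand): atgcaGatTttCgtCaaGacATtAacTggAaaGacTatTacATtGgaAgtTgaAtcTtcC

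Over the whole ubiquitin unit, pairs of these genes were identical at 82.5 to 90.8% of the bases. The other units of *ubi4* were 93.0 to 94.3% identical to its own first unit, so the first unit of *ubi4* is closer to its own other units than any pair of genes is to each other. Among all windows of 50 bases, the read length, in the coding sequence of *ubi4*, 91.0% occur more than once in the genome, and no window was shared with another of the genes examined. For *ubi3* 22.3% of windows recur, all shared with SPAC589.10c. The twin genes *rpn501* and *rpn502*, which encode the same 19S subunit and are 99.8% identical in coding sequence, share 88.5% of their windows with each other, so how their reads were divided is uncertain. The other 52 genes have no recurring window.

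The upstream sequence was searched because Hsf1 binds heat shock elements, alternating repeats of GAA and its reverse complement TTC. The window ran from 250 bases before the annotated gene start to 50 bases after it, on both strands, for 5123 promoters. A run of 3 such units (TTCNNGAA followed by NNTTC, or GAANNTTC followed by NNGAA) was found in 1 of the 56 genes, *pub3*, and in 24 of all promoters (0.468%). A run of 2 units (TTCNNGAA or GAANNTTC, also contained in each run of 3) was found in 6 of the 56 genes (10.7%) and in 1017 of all promoters (19.9%). These 6 were *ubc14*, *ubc16*, *ufd1*, *ufd2*, *pub3* and *ubp16*, and 0 of the 20 genes of the 19S particle. The letters GGTGGCAAA, by which the factor Rpn4 is known to act on proteasome genes in budding yeast, were found in 0 of the 56 genes and in 5 promoters (0.0976%). A match is a run of letters and not a known binding site, and a window without a match shows no more than that these letters are not in it. The matches of *ufd1* and *pub3* are given with the units in capitals, the former 170 to 163 bases before the gene start, the latter 26 to 38 bases after it. The window of *ubi4*, the ubiquitin gene with the largest heat stress ratio, holds no match and is given with the ATG in capitals.
ufd1 (chrII:4281847-4281884, plus strand): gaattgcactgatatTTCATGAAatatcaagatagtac
pub3 (chrII:1938521-1938559, minus strand): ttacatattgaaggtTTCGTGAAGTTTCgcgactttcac
ubi4 (chrII:1045543-1045842, minus strand): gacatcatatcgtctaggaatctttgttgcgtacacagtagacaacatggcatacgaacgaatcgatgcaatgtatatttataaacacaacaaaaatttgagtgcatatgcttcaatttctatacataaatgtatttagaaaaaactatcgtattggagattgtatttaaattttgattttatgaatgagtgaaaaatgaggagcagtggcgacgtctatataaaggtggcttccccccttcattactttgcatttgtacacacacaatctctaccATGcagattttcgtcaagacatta

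In heat-stressed wild type cells, genes of every role except the *pub* ligases included members more than 2-fold higher, and no member was more than 2-fold lower. The median log2 ratio to wild type was 0.54 over the 56 genes and 0.01 over the 6426 genes with a ratio. Of the 56 genes, 10 (17.9%) were more than 2-fold higher, against 14.1% of all genes with a ratio and 10.1% of the 4557 coding genes averaging 10 FPKM or more. None was more than 2-fold lower, against 10.3% and 8.73%. The share more than 2-fold higher thus lay near that of all genes and above that of these coding genes, and the share lower lay below both. The list as a whole was shifted: 48 of the 56 log2 ratios (85.7%) lay above 0, against 50.6% of all genes. Past 1.5-fold, 26 of the 56 (46.4%) were higher and 1 was lower, against 23.9% and 21.2% of all genes.

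**Figure D1:**
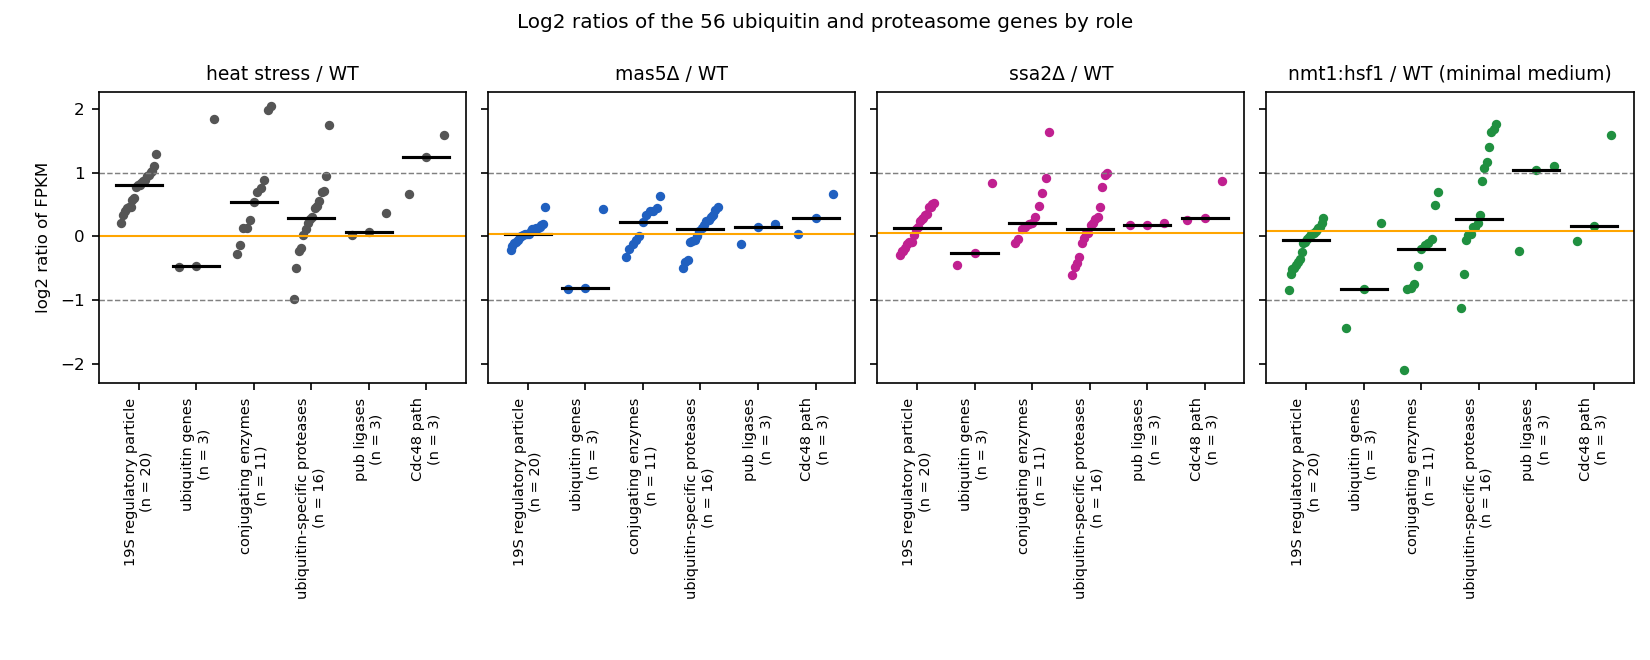
Log2 ratio of FPKM of each of the 56 genes (points) by role in the 4 comparisons, with the median of each role (black bar), the median of all genes with a ratio (orange line) and the 2-fold limits (dashed lines). In heat stress the 20 genes of the 19S particle lie between 0.22 and 1.30, and in *mas5Δ* all 56 genes lie inside the 2-fold limits.

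The 20 listed genes of the 19S regulatory particle moved as a block in heat stress. All 20 had a log2 ratio above 0, from 0.22 for *rpn1301* to 1.30 for *rpn11*, with a median of 0.80. Of the 20S core, whose genes carry other names and were taken from the annotated products, all 14 genes also had ratios above 0, from 0.11 for SPBC646.16 (subunit alpha 1) to 0.93 for *pre8* (alpha 2), with a median of 0.55. All 34 genes of these 2 lists thus had higher values after the temperature shift, with a median fold of 1.57, and 4 of them passed 2-fold. Of *pre8*, 39.2% overlaps SPCC1442.07c on the other strand, which went from 6.61 to 152 FPKM in the same libraries, while *pre8* had 115 and 220. A pair of genes outside both lists, whose products also name a part of the proteasome, had lower values in heat stress. SPCC18.17c, annotated as a non-ATPase regulatory subunit, had 31.8 and 19.7 FPKM (-0.69), and *dss1*, annotated as a proteasome receptor and ligase adaptor, had 307 and 268 (-0.20).

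The largest of these ratios belonged to *rpn11* (chrI:3010646-3012307), the metalloprotease of the 19S lid that removes ubiquitin chains as a protein is degraded, at 169 FPKM in wild type and 415 FPKM after the heat shift. Among the 6 ATPases that form the unfolding ring, *rpt6* had 157 FPKM in wild type and 335 in heat stress (log2 ratio 1.10), *rpt2* had 163 and 331 (1.02), and *rpt5* had 111 and 224 (1.01). The next gene, *rpt3*, lay just under the 2-fold limit with 167 and 325 FPKM (0.96). The ATPases had a median of 0.98 and the other 14 genes of the particle a median of 0.68. The *rpt6* and *rpt2* genes are alone in their locus. The *rpt3* gene shares its locus with SPNCRNA.119, which had 29.7 FPKM in wild type and 192 in heat stress. How far *rpt3* and SPNCRNA.119 overlap is not known. The *rpt5* gene is wholly overlapped by the antisense RNA SPNCRNA.908, which had 2.55 FPKM in wild type and 7.35 in heat stress, a small fraction of the *rpt5* values.

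The remaining subunits formed a graded series under the 2-fold limit. Ratios from 0.77 to 0.94 were found for *rpn10*, *rpn6*, *rpn12*, *rpn2*, *rpn7*, *rpt4* and *mts4*, among them Rpn10, a receptor for ubiquitin chains, and Mts4 (Rpn1), a scaffold subunit. Rpn13, another ubiquitin receptor, has a pair of genes that are 47.0% identical in coding sequence. *rpn1301* had 48.2 FPKM in wild type and 56.02 in heat stress, and *rpn1302* had 61.9 and 81.3. The *rpn501* gene had 14.4 and 21.9 FPKM and *rpn502* 24.3 and 33.3, values that depend on how their shared reads were divided. These 4 duplicated genes had the lowest FPKM of the particle in wild type, where the other 16 lay at 86.5 FPKM or higher, and without them the median ratio was 0.85. Of the other 16, *rpt1* (0.57), *rpn3* (0.47), *rpn9* (0.45) and *rpn8* (0.33) also lay below 0.77, with 135 to 184 FPKM in wild type.

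**Figure D2:**
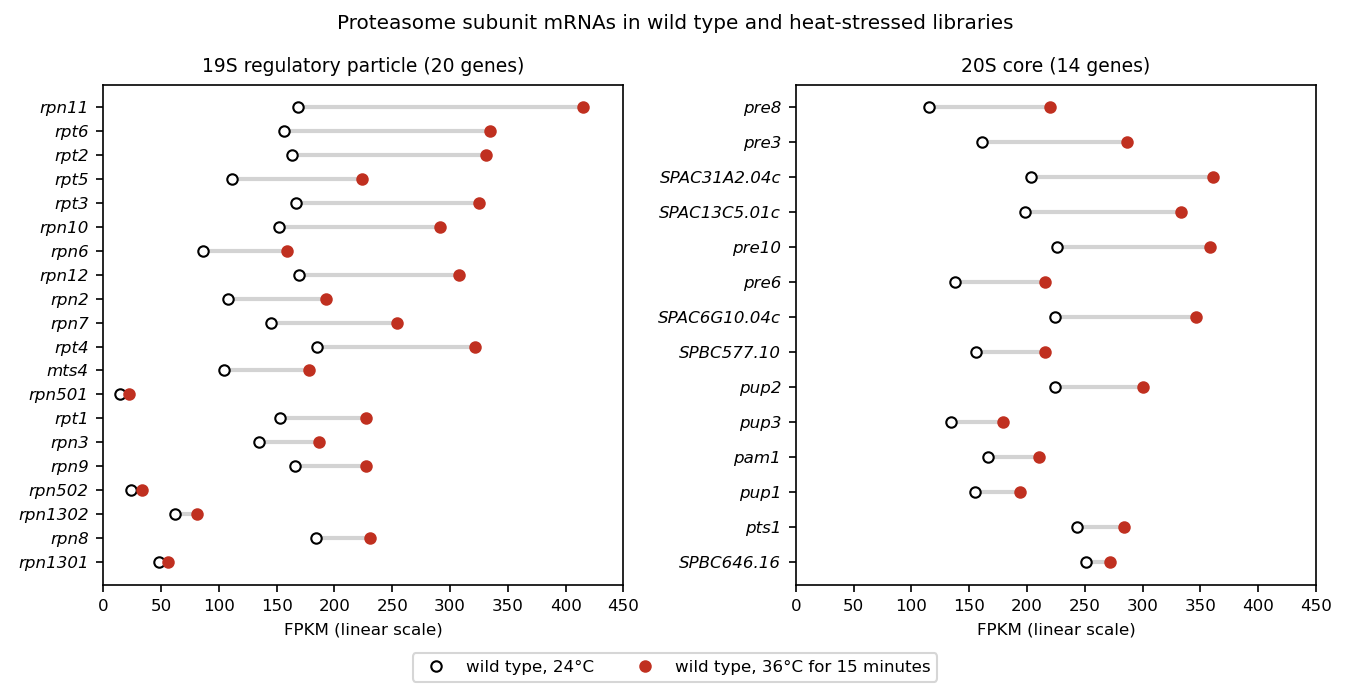
FPKM of the 20 genes of the 19S particle (left) and the 14 genes of the 20S core (right) in the wild type library at 24°C (open) and the library of cells kept at 36°C for 15 minutes (filled), sorted by ratio. Every filled point lies to the right of its open point, and *rpn11* moves from 169 to 415 FPKM.

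The ubiquitin genes split by their type. *ubi4* (chrII:1044271-1045592), the polyubiquitin gene, went from 58.8 FPKM in wild type to 211 FPKM in heat-stressed cells, a log2 ratio of 1.84. The fusion genes are far more abundant and had lower values in heat stress. *ubi1* (chrI:3968996-3969558) had 4234 and 3031 FPKM (-0.48), and *ubi3* (chrI:3237895-3238394) had 5831 and 4209 (-0.47). The fusion genes outside the list had the same sign, with 1346 and 723 FPKM for *uep1* (-0.90) and 1641 and 1060 FPKM for SPAC589.10c (-0.63). In heat stress all 4 fusion genes were therefore lower and the polyubiquitin gene higher, although even then *ubi4* remained below each fusion gene in FPKM. *ubi4* is alone in its locus, and none of its recurring windows was shared with another of the genes examined. These recurring windows are 91% of its windows, and how such reads were counted is unknown.

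Cdc48 and its partner Ufd1 were more than 2-fold higher in heat stress. *cdc48* (chrI:1306445-1309266) had 345 FPKM in wild type and 1037 in heat stress (log2 ratio 1.59), the highest heat stress value among the 56 genes after *ubi3*, *ubi1* and *ubc4*. *ufd1* had 54.8 and 130 FPKM (1.25), and *npl4*, the partner outside the list, had 49.95 and 106 (1.09). The ubiquitin chain elongating enzyme gene *ufd2* had 34.1 and 54.0 FPKM (0.66). All genes of the Cdc48-Ufd1-Npl4 complex thus passed 2-fold. An antisense RNA, SPNCRNA.1686, overlaps 64.5% of *ufd1* and had 6.15 FPKM in wild type and 4.30 in heat stress.

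Among conjugating enzymes, the largest ratios of the whole list belonged to *ubc8* and *ubc6*. *ubc8* (chrII:3885535-3886935) had 43.6 FPKM in wild type and 180 in heat stress, a log2 ratio of 2.05. *ubc6* (chrI:1214788-1215948), whose budding yeast counterpart sits in the endoplasmic reticulum membrane and serves the degradation of misfolded proteins there, had 29.5 and 116 FPKM (1.97). The antisense gene SPAC10F6.04 overlaps the whole of *ubc6* and had 18.0 FPKM in wild type and 28.0 in heat stress, lower than *ubc6* in both libraries. The other 9 conjugating enzyme genes lay between -0.27 for *ubc1* and 0.89 for *ubc14*. *ubc4*, whose budding yeast counterpart acts on short-lived and damaged proteins, was by far the most abundant of them, with 1773 FPKM in wild type and 2561 in heat stress (0.53).

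The ubiquitin-specific proteases had a lower median in heat stress, 0.28 over 16 genes. *ubp15* (chrII:866271-870253), alone in its locus, was the exception past 2-fold, with 53.1 FPKM in wild type and 178 in heat stress (1.75). The next were *ubp14* with 29.7 and 57.0 FPKM (0.94) and *ubp8*, the deubiquitinase of the SAGA complex, with 25.3 and 41.3 FPKM (0.71). *ubp16* had the lowest ratio of the 56 genes, with 17.1 and 8.71 FPKM (-0.98), and lay just outside the 2-fold limit. The 3 HECT-type ligase genes *pub1*, *pub2* and *pub3* lay between 0.03 and 0.36.

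The ligases beyond the *pub* genes gave a broader range. Of 67 genes whose product names a ubiquitin ligase or its subunit, 66 had a ratio in heat stress, with a median of 0.37. Among them 10 (15.2%) were more than 2-fold higher, against 14.1% of all genes and 10.1% of coding genes averaging 10 FPKM or more. More than 2-fold lower was 1 (1.52%), against 10.3% and 8.73%. The extremes were SPBC14F5.10c, an E3 ligase gene with 21.3 and 87.8 FPKM (2.04), and *slp1*, an activator of the anaphase-promoting complex, with 85.1 and 8.11 FPKM (-3.39).

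**Figure D3:**
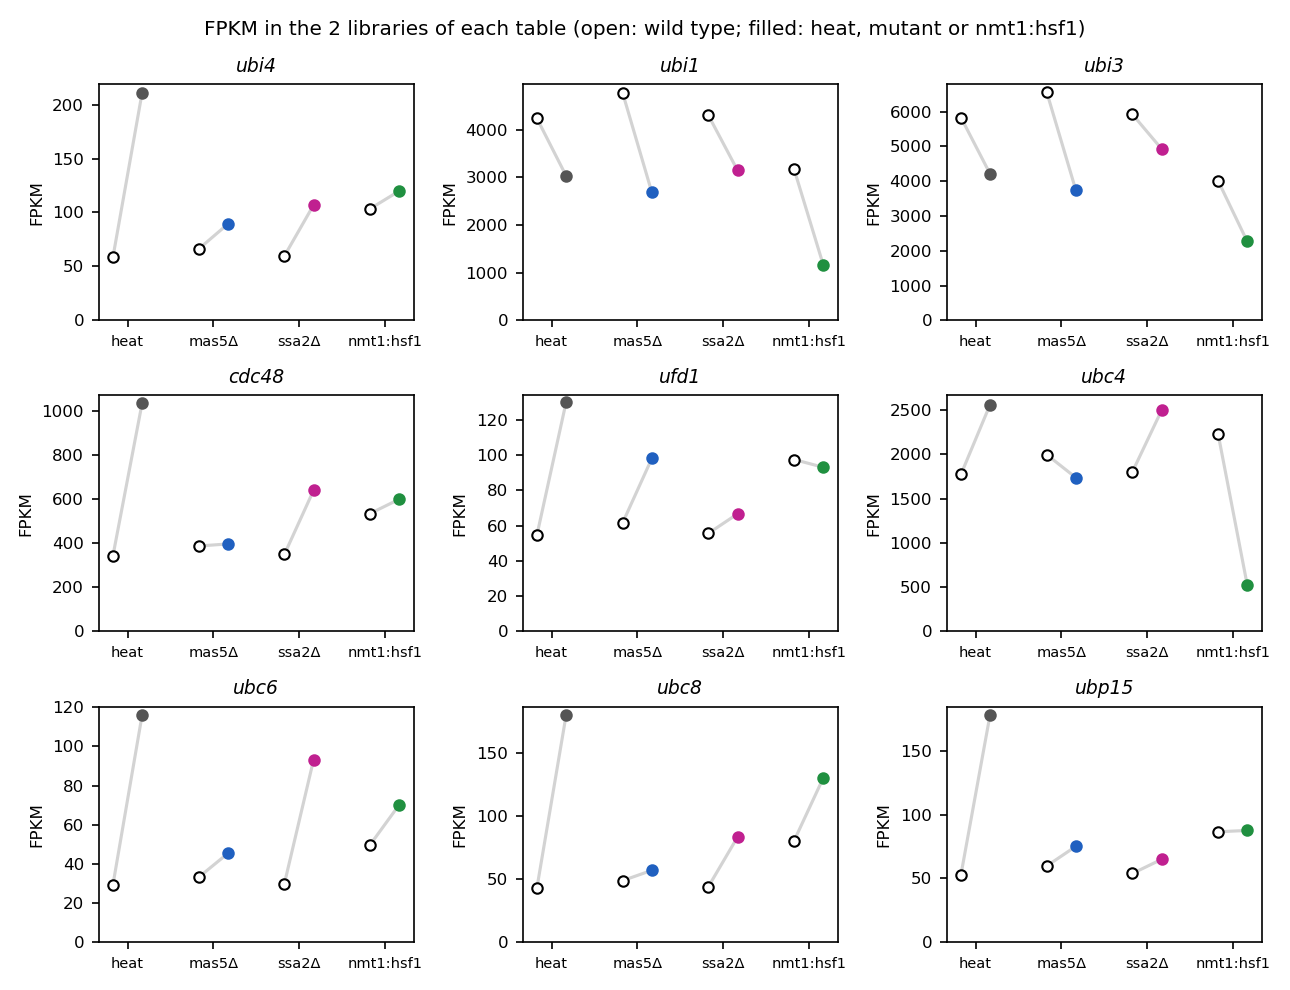
FPKM (linear axes from 0, a separate scale for each gene) of 9 genes in the wild type (open) and the compared library (filled) of each of the 4 tables, which were normalized separately. In *ubi4*, *cdc48*, *ubc6*, *ubc8* and *ubp15* the largest step is in heat stress, while the largest step of *ubc4* is the fall from 2228 to 523 FPKM in *nmt1:hsf1* cells.

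In *mas5Δ* cells the list stayed close to wild type. None of the 56 genes was more than 2-fold higher or lower, against 7.25% of all 6465 genes with a ratio higher and 5.15% lower (2.78% and 3.46% of coding genes averaging 10 FPKM or more). The median log2 ratio was 0.08, with 0.04 over all genes. Past 1.5-fold, 2 genes (3.57%) were higher and 2 (3.57%) lower, against 14.5% and 14.3% of all genes with a ratio. Above 0 lay 37 of the 56 ratios (66.1%), against 54%. The set of all genes includes non-coding genes and genes of low FPKM. The 19S particle had a median of 0.04, with a range from -0.21 to 0.45, and the 20S core a median of 0.07. Several genes that passed 2-fold in heat stress were close to wild type here. *cdc48* had 388 FPKM in wild type and 397 in *mas5Δ* (0.03), *rpn11* had 190 and 179 (-0.08), and *ubp15* had 59.7 and 75.1 (0.33). Of the ATPases, *rpt2* had 184 and 211 FPKM (0.20), *rpt5* 125 and 117 (-0.10) and *rpt6* 176 and 169 (-0.06). Others were farther from wild type, among them *ubc6* with 33.2 and 45.4 FPKM (0.45), and *ubc8* had 49.1 and 57.2 (0.22). *ubc4* had 1995 and 1735 FPKM (-0.20) and *ubp16* 19.3 and 13.7 (-0.49).

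The genes farthest from wild type in *mas5Δ* were *ufd1* at one end and the fusion genes at the other. *ufd1* had 61.7 and 98.2 FPKM (0.67) and *ubc14*, a conjugating enzyme gene, had 65.4 and 101 (0.62). *ubi1* had 4767 and 2684 FPKM (-0.83) and *ubi3* 6565 and 3742 (-0.81). The fusion genes outside the list, *uep1* and SPAC589.10c, had ratios of -0.88 (1515 and 821 FPKM) and -0.72 (1848 and 1126 FPKM). As in heat stress, the polyubiquitin gene had the opposite sign, with 66.2 and 89.3 FPKM for *ubi4* (0.43), and both comparisons use the same wild type library.

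In *ssa2Δ* cells single genes were higher, but the proteasome genes were not shifted as a block. The median of the 56 genes was 0.18, with 0.05 over all genes. *ubc6* was more than 2-fold higher, 1 of 56 genes (1.79%) against 10.9% of all 6420 genes with a ratio (6.15% of coding genes averaging 10 FPKM or more), and 0 were more than 2-fold lower against 4.14% (1.47%). Past 1.5-fold, 8 genes (14.3%) were higher and 1 (1.79%) lower, against 19.8% and 11.4% of all genes with a ratio. Above 0 lay 38 of 56 ratios (67.9%), against 54.1%. *ubc6* had 30.0 FPKM in wild type and 93.1 in *ssa2Δ*, a log2 ratio of 1.63, and its antisense neighbour SPAC10F6.04 had 18.3 and 30.7 FPKM. The 19S particle had a median of 0.13, with 12 of 20 genes above 0 and a range from -0.29 for *rpn3* to 0.53 for *rpn11*. The 20S core had a median of 0.10, with 9 of 14 genes above 0.

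Several genes lay between 1.5-fold and 2-fold in *ssa2Δ*. *ubp8* had 25.7 FPKM in wild type and 51.0 in *ssa2Δ* (0.99), just under the 2-fold limit, and *ubp11* had 29.3 and 57.1 (0.96). *ubc8* had 44.3 and 83.6 FPKM (0.92), *cdc48* had 350 and 641 (0.87), and *ubi4* had 59.7 and 107 (0.84). These include *ubc8*, *cdc48* and *ubi4*, which passed 2-fold in heat stress. Others that passed it in heat stress were nearer to wild type, with 53.9 and 64.9 FPKM for *ubp15* (0.27), 55.7 and 66.7 for *ufd1* (0.26) and 159 and 194 for *rpt6* (0.29). *rpt2* had 166 and 200 FPKM (0.27), *rpt5* 113 and 134 (0.24) and *rpn11* 171 and 247 (0.53). The fusion genes were again below wild type. *ubi1* had 4300 and 3147 FPKM (-0.45) and *ubi3* 5922 and 4930 (-0.26), and *uep1* had 1367 and 908 (-0.59) and SPAC589.10c 1667 and 1362 (-0.29). *ubc4* had 1800 and 2494 FPKM (0.47). The lowest ratio was that of *ubp16*, with 17.4 and 11.4 FPKM (-0.61).

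The *mas5Δ* and *ssa2Δ* values depend on the wild type library used. Against wild type in minimal medium, from a table normalized separately, the medians of the 56 genes changed sign, to -0.14 in *mas5Δ* and -0.11 in *ssa2Δ*, and 2 genes were more than 2-fold higher in *ssa2Δ*, *ubp11* (1.57) and *ubp12* (1.02), while *ubc6* was at 0.90. The ratios in *mas5Δ* and *ssa2Δ* were -0.21 and 0.05 for *ubi4*, -0.24 and -0.01 for *ubi1*, and -0.10 and 0.30 for *ubi3*. In that setting the mutant and the medium cannot be told apart.

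In *nmt1:hsf1* cells the median was 0.00 over the 56 genes and 0.09 over all genes, while the single genes spread more widely than in the other comparisons. Of the 56 genes, 9 (16.1%) were more than 2-fold higher, against 27.1% of all 6335 genes with a ratio and 21.8% of coding genes averaging 10 FPKM or more. More than 2-fold lower were 3 (5.36%), against 16.7% and 15.8%. Past 1.5-fold, 11 were higher and 9 lower, against 36.3% and 27.6%, and 28 of 56 ratios lay above 0, against 52.8%. Most of those higher were ubiquitin-specific proteases and ligases. The genes that passed 2-fold in heat stress were not among them. *ubi4* had 103 FPKM in wild type and 120 in *nmt1:hsf1* cells (0.21), *cdc48* had 536 and 601 (0.17), and *rpn11* had 225 and 274 (0.28). *ubp15* had 86.5 and 87.5 FPKM (0.02) and *ufd1* had 97.6 and 93.2 (-0.07). The conjugating enzyme genes were nearer to the 1.5-fold limit, with 80.7 and 131 FPKM for *ubc8* (0.69) and 49.8 and 70.2 for *ubc6* (0.50).

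The proteasome subunits were not shifted upwards as a block in *nmt1:hsf1* cells. The 19S particle had a median of -0.07, from -0.83 for *rpt3* (251 FPKM in wild type and 141 in *nmt1:hsf1*) to 0.28 for *rpn11*. SPNCRNA.119, in the locus of *rpt3*, had 35.8 and 0 FPKM in the same libraries. Among the other ATPases, *rpt6* had 243 and 178 FPKM (-0.45), *rpt2* had 250 and 274 (0.13) and *rpt5* had 155 and 160 (0.05). The 20S core had a median of -0.28, which was -0.04 relative to the length classes described below and -0.59 over its genes alone in their locus. SPAC31A2.04c (beta 4) was the member past 2-fold, with 342 and 695 FPKM (1.02), and *pre10* (alpha 7) lay just under it, with 332 and 653 (0.98).

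The genes more than 2-fold higher in *nmt1:hsf1* cells were *ubp2*, *ubp5*, *ubp7*, *ubp8*, *ubp12*, *ubp13*, *pub2*, *pub3* and *ufd2*. *ubp2* (chrI:3487194-3491099) had 41.8 FPKM in wild type and 141 in *nmt1:hsf1* cells (1.75), *ubp12*, which acts with the COP9 signalosome, had 33.4 and 107 (1.69), and *ubp13* had 39.4 and 123 (1.64). These are the largest ratios of the list, followed by *ufd2* with 42.7 and 129 FPKM (1.59). *ubp7* had 41.3 and 109 FPKM (1.40), *ubp5* had 36.5 and 82.0 (1.17) and *ubp8* had 41.0 and 86.4 (1.08). The ligase gene *pub3* had 58.6 and 126 FPKM (1.10) and *pub2* had 25.9 and 53.4 (1.04). All 9 were below 60 FPKM in wild type. The antisense RNA SPNCRNA.1289, which overlaps 31.9% of *ubp12*, had 0.342 and 48.4 FPKM in the same libraries, and *mcp7*, which overlaps 28.0% of *ubp8* on the other strand, had 9.78 and 20.3.

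In the other 3 tables these 9 genes stayed within 2-fold of wild type, in the order heat stress, *mas5Δ* and *ssa2Δ* for each gene. *ubp2* had 35.8 FPKM in wild type and 48.6 in heat stress (0.44), 40.3 and 38.8 in *mas5Δ* (-0.05) and 36.3 and 35.8 in *ssa2Δ* (-0.02). *ubp12* had 38.9 and 57.0 (0.55), 43.7 and 41.1 (-0.09) and 39.5 and 67.6 (0.78), and *ubp13* had 41.9 and 42.7 (0.02), 47.2 and 53.2 (0.17) and 42.6 and 52.7 (0.31). Of these 3 genes, only *ubp12* passed 1.5-fold in any of those tables, in *ssa2Δ*. The antisense RNA SPNCRNA.1289 that overlaps part of *ubp12* had 0.879 and 12.2 FPKM in *ssa2Δ*, and 0.865 and 19.4 in heat stress. *ubp5* had 25.2 and 40.7 FPKM (0.69), 28.4 and 33.4 (0.23) and 25.6 and 29.7 (0.21), and *ubp7* had 37.2 and 32.8 (-0.18), 41.9 and 44.5 (0.09) and 37.8 and 39.1 (0.05). *ubp8*, given above for heat stress and *ssa2Δ*, had 28.5 and 37.8 in *mas5Δ* (0.41). Thus *ubp5* and *ubp8* also passed 1.5-fold in heat stress, and *ubp7* in none of the 3. *ufd2*, given above for heat stress, had 38.4 and 46.6 FPKM in *mas5Δ* (0.28) and 34.6 and 42.03 in *ssa2Δ* (0.28). The ligase gene *pub3* had 39.8 and 51.3 (0.36), 44.9 and 51.5 (0.20) and 40.5 and 45.6 (0.17), and *pub2* had 22.1 and 22.5 (0.03), 24.9 and 23.0 (-0.12) and 22.4 and 26.1 (0.22). Both ligase genes stayed within 1.5-fold in these 3 tables.

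The genes more than 2-fold lower were *ubc4*, *ubi1* and *ubp16*. *ubc4* (chrII:715285-716311) had 2228 FPKM in wild type and 523 in *nmt1:hsf1* cells (-2.09). The antisense RNA SPNCRNA.1382, which overlaps 47.0% of *ubc4*, had 11.3 and 69.5 FPKM. *ubi1* had 3169 and 1165 FPKM (-1.44), *ubi3* had 4012 and 2268 (-0.82), and the fusion genes outside the list had 953 and 316 FPKM for *uep1* (-1.59) and 1353 and 541 for SPAC589.10c (-1.32). All 4 fusion genes were thus lower and *ubi4* higher in this table, as in the other 3, which share a wild type library. With wild type in minimal medium as the reference, *mas5Δ* and *ssa2Δ* did not show this split, as given above. *ubp16* had 11.6 and 5.31 FPKM (-1.12), the only one of the 56 genes with a mean under 10 FPKM in any table, and the antisense RNA SPNCRNA.1137 that overlaps 79.0% of it had 4.49 and 39.7 FPKM.

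Gene length moved with the ratios of the *nmt1:hsf1* table. Over coding genes averaging 10 FPKM or more, the median log2 ratio was -0.71 for the 118 genes of up to 500 bases, -0.22 for genes of 1000 to 1500 bases, 0.15 for 2000 to 3000 bases, 0.48 for 3000 to 4000 bases and 1.00 for the 308 genes over 4000 bases. The corresponding medians lay between -0.30 and 0.08 in heat stress, between -0.18 and 0.09 in *mas5Δ* and between -0.14 and 0.11 in *ssa2Δ*. The ubiquitin-specific protease genes are long, with a median of 2660 bases, and *ubi1* and *ubi3* are 563 and 500 bases long. With each ratio taken relative to the median of its length class among 10, an alternative chosen after seeing the data, 3 genes instead of 9 remained more than 2-fold higher in *nmt1:hsf1* cells, *ufd2* (1.20), *ubp8* (1.01) and *ubp7* (1.00). *ubc4* was at -1.69, *ubp16* at -1.19, *ubi1* at -0.73 and *ubi3* at -0.10 on that scale. In heat stress the same step left the median of the 19S particle at 0.80 and the counts past 2-fold by role as they were, with *ubi1* at -0.27 and *ubi3* at -0.26. What part length plays in the *nmt1:hsf1* ratios was not tested.

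**Figure D4:**
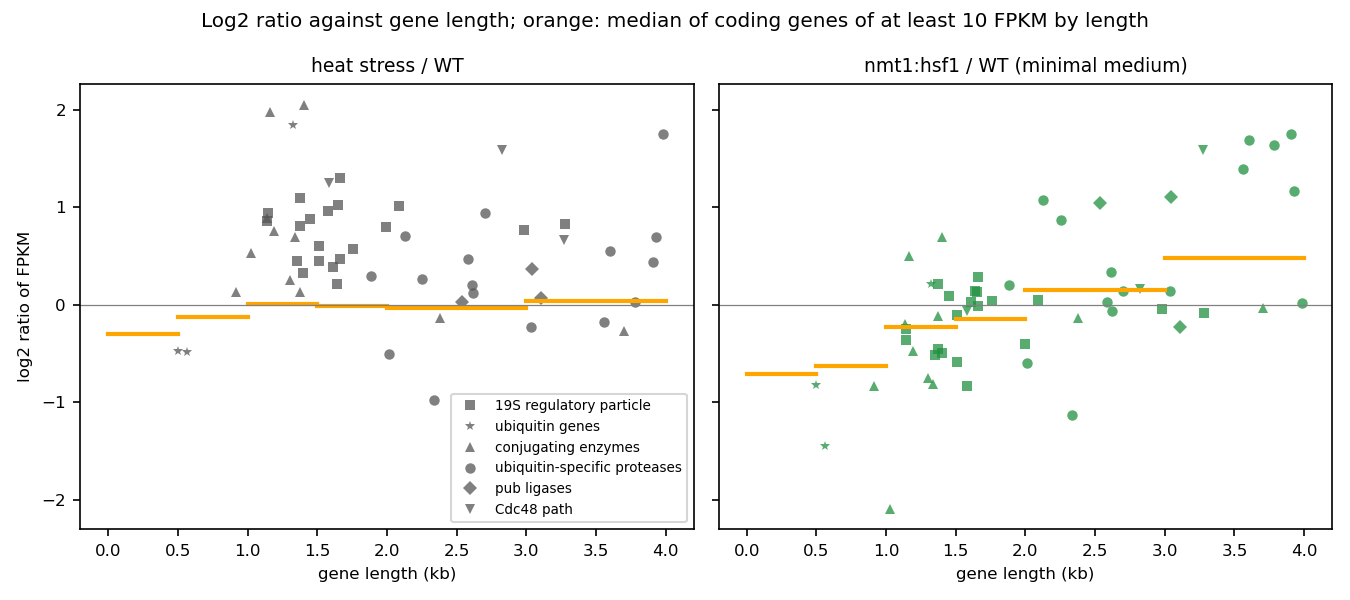
Log2 ratio of FPKM of the 56 genes against gene length in kb in heat stress (left) and in *nmt1:hsf1* cells (right), with the role of each gene by symbol and the median of coding genes averaging 10 FPKM or more in each length class (orange bars). The bars lie between -0.30 and 0.04 in heat stress and climb from -0.71 to 0.48 in *nmt1:hsf1* cells.

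The 4 comparisons differ in the size of the change over the same 56 genes. The SD of their log2 ratios was 0.62 in heat stress, 0.30 in *mas5Δ*, 0.42 in *ssa2Δ* and 0.77 in *nmt1:hsf1* cells, and over coding genes averaging 10 FPKM or more it was 1.01, 0.58, 0.67 and 1.29. In each table the 56 genes spread less than these coding genes. Summed over the 56 genes, FPKM made up 1.69% of the total in wild type in rich medium, 1.70% in heat stress, 1.51% in *mas5Δ*, 1.70% in *ssa2Δ*, 1.58% in wild type in minimal medium and 1.32% in *nmt1:hsf1* cells. The abundant *ubi1*, *ubi3* and *ubc4* weigh most in these sums. Of the 56 genes, 22 passed 2-fold in at least 1 comparison, and 34 stayed within 2-fold of wild type in all 4.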

How the data were processed

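The authors extracted RNA with the RNeasy kit, selected polyadenylated RNA, prepared TruSeq libraries and sequenced single ends of 50 bases. They mapped the reads with Tophat and obtained expression values with Cufflinks (Cuffdiff) in Galaxy; versions, annotation and genome build are not given in the sources used here. The authors deposited 4 tables of FPKM values, each of 2 libraries scaled together. The deposited columns of fold changes, p-values and significance marks were not used. How many reads lie behind a value is unknown, so counting errors were not computed.

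For every gene with FPKM above 0 in both libraries of a table, the log2 ratio of the deposited values was taken with no pseudocount. Genes past 2-fold were counted. With 1 library for each condition, no test was made. Lists are described by medians and counts beside those of all genes with a ratio. Shares past 1.5-fold and above 0 are given only beside all genes with a ratio, which include non-coding genes and genes of low FPKM. Any of the 56 genes could be named; values in every library were given for *ubi* genes, *cdc48*, *rpn11* and genes past 2-fold in at least 1 comparison with a mean of at least 10 FPKM. Ligases, 20S core and other genes of the pathway were taken by the product in the RefSeq annotation of ASM294v3. The genes, the lists and the rules were chosen with earlier results of these data known.

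Sequences and gene coordinates are from RefSeq (ASM294v3), to which 6843 of the 7008 identifiers, and all 56 genes, matched. Of 2253 genes alone in their locus, 2244 had the same start or end in the tables. The alternatives were pseudocounts of 0.1 and 1, minimum means of 1 and 10 FPKM, centring on the median, genes alone in their locus, genes with a Cuffdiff status of OK, thresholds of 1.5-fold and 3-fold, and wild type in minimal medium as the reference of the mutants. Centring within 10 classes of gene length was chosen after seeing the data. Scripts were tested on simulated ratios. The computations used Python 3.11.15, numpy 2.4.6, pandas 2.3.3, Biopython 1.88 and matplotlib 3.10.9.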

Additional observations from a re-analysis of the deposited data

How the results depend on the processing

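Of 218 recomputed values over 20 counts and medians and 8 ratios of *ubi4* and *cdc48*, 195 stayed within 1.5 times the count, the interval of the median over genes or 1.5-fold of the ratio. Of these 195, 7 changed sign, among them *cdc48* in *nmt1:hsf1*, 0.17 and -0.23 with centring by gene length, and the 20S core in *ssa2Δ*, 0.10 and -0.08 over genes alone in their locus. Part of the 195 was fixed in advance. All 56 genes had status OK and at least 5.31 FPKM, so the filters on status and on a mean of 1 FPKM removed none of them. The filter on a mean of 10 FPKM removed only *ubp16*, and a count of 0 that stayed at 0 was taken as unchanged. Among genes alone in their locus, 4 of 18 were more than 2-fold higher in heat stress, 0 in *ssa2Δ* and 2 in *nmt1:hsf1* cells, 0 were lower in *nmt1:hsf1*, and the median of the 19S particle in *mas5Δ* was 0.14. At 1.5-fold the counts were 26 higher and 1 lower in heat stress, 2 and 2 in *mas5Δ*, 8 and 1 in *ssa2Δ*, and 9 lower in *nmt1:hsf1*. At 3-fold they were 5 higher in heat stress, and 4 higher and 1 lower in *nmt1:hsf1*. Centring by gene length left 3 higher in *nmt1:hsf1*. Against wild type in minimal medium, the median of the 56 genes reversed to -0.14 in *mas5Δ* and -0.11 in *ssa2Δ*, that of the 19S particle moved to -0.24 and -0.34 and that of the 20S core to -0.38 and -0.46, and 2 genes were more than 2-fold higher in *ssa2Δ*; the cause was not tested. No paired analysis was possible because each condition has 1 library.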

Other observations

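Other genes of ubiquitin biology, listed by product, included larger heat stress ratios than any of the 56 genes. SPCC1442.07c, a ubiquitin and metalloprotease fusion gene, had 6.61 FPKM in wild type and 152 in heat-stressed cells, a log2 ratio of 4.53. Its ratio was 0.34 in *mas5Δ* (7.44 and 9.39 FPKM), 3.47 in *ssa2Δ* (6.71 and 74.4) and 1.58 in *nmt1:hsf1* cells (15.7 and 47.1). Of this gene, 85.3% overlaps *pre8*, a 20S core gene with 115 and 220 FPKM in wild type and heat stress, on the other strand, so reads there cannot be told apart. It was the highest of the 22 other ubiquitin factors in heat stress, whose median there was 0.07. The E1 gene *ptr3* had 101 FPKM in wild type and 187 in heat stress (0.89).

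Among 7 deubiquitinase genes outside the *ubp* family, *otu1* had the highest heat stress ratio. Otu1 of budding yeast binds Cdc48. *otu1* had 11.9 FPKM in wild type and 56.6 in heat stress (2.25), with ratios of 0.58 in *mas5Δ*, 1.52 in *ssa2Δ* and 1.31 in *nmt1:hsf1* cells. The antisense RNA SPNCRNA.883 overlaps 70.7% of it and had 11.7 and 123 FPKM in wild type and heat stress.

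The 10 other genes whose product names the proteasome went both ways in heat stress, with 4 above 0, 6 below 0 and a median of -0.18. SPCC18.17c and *dss1*, described above, are among those below 0. *ump1*, which assists maturation of the core, had 149 FPKM in wild type and 236 in heat stress (0.66), while *cut8*, which tethers the proteasome at the nucleus, had 86.9 and 51.5 (-0.76), and SPAC17C9.12, which overlaps 70.0% of *cut8* on the other strand, had 91.3 and 189. SPAC15E1.10, with a domain of the PI31 proteasome inhibitor, had 14.7 and 48.6 FPKM (1.72).

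In *nmt1:hsf1* cells, 20 of 66 ligase genes (30.3%) passed 2-fold upwards and 0 downwards. The shares were 27.1% and 16.7% of all genes, and 21.8% and 15.8% of coding genes averaging 10 FPKM or more. In *mas5Δ* 1 (1.52%) passed upwards and 0 downwards, against 7.25% and 5.15% of all genes and 2.78% and 3.46% of these coding genes. In *ssa2Δ* 4 (6.06%) passed upwards and 0 downwards, against 10.9% and 4.14% of all genes and 6.15% and 1.47% of these coding genes. The ligase gene *ubr1*, 5984 bases long, had 11.3 FPKM in wild type and 51.3 in *nmt1:hsf1* cells (2.18).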
